A study of Caenorhabditis elegans with 24 samples.

Results

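The unc-1(vlt10) allele changed few transcripts by more than 2-fold in animals that already carried the nhr-1(vlt16) allele. Double mutants, which carry both alleles in the 40Q background, were compared here with single nhr-1(vlt16) mutants in the same background, 6 RNA-seq libraries of each, 12 of the 24 libraries of the study. The libraries were taken by their labels, and the comparison gives the effect of the unc-1 mutation that remains without a functional nhr-1. All 4 genotypes carried the same transgene, a tract of 40 glutamines fused to YFP (40Q) under the muscle promoter of unc-54, so the animals called 40Q are the controls and not wild-type worms. The allele vlt10 came from a chemical mutagenesis screen and is a premature stop in unc-1. The allele vlt16 is a nonsense mutation of nhr-1 made by CRISPR. Each genotype was 1 strain, so any other difference between the strains cannot be told apart from the effect of the alleles. The transgene and both mutated genes are on chromosome X. Pooled young adults grown at 20°C gave the RNA, so a lower level cannot be separated here into fewer cells of a type and less RNA per cell.

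UNC-1 is a stomatin, a protein of the inner face of the plasma membrane that in Caenorhabditis elegans controls gap junctions made of innexins, and unc-1 mutants move poorly. In the pathway studied here UNC-1 acts through SSU-1, a cytosolic sulfotransferase of the ASJ sensory neurons, which transfers sulphate to small molecules such as steroids. NHR-1 is a nuclear hormone receptor, a transcription factor of the class that binds lipophilic ligands, and acts in the muscle cells downstream of SSU-1. A change that the unc-1 allele makes only through NHR-1 would not be seen between double mutants and nhr-1(vlt16), whereas a change made by another route would.

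The labels were first checked on the mutated genes. Counts were scaled to a common library size (CPM, counts per 1e6 reads) after normalisation for depth and composition. The unc-1 transcript (chromosome X, 1057487 to 1062453) lay at 5.48 CPM in the lowest, 6.27 CPM at the median and 7.44 CPM in the highest nhr-1(vlt16) library, and at 0.814, 0.901 and 1.02 CPM in the double mutants. The 2 sets of libraries did not overlap. The transcript was 6.97-fold lower in the double mutants (log2 fold change −2.80 ± 0.14, SE, n = 6 and 6, adjusted p = 8.4e-16). For nhr-1 (chromosome X, 17514063 to 17528197) the levels were 11.3, 15.1 and 16.4 CPM in nhr-1(vlt16) and 12.4, 14.2 and 16.8 CPM in the double mutants. These overlapped (log2 fold change −0.05 ± 0.08, adjusted p = 0.747), and both genotypes stood below 40Q, whose mean was 28.1 CPM. The double mutants were sequenced more deeply, with 26646628 to 30467364 reads on genes per library against 20128600 to 22745709 in nhr-1(vlt16).

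Of 14598 genes with at least 10 counts in at least 6 of the 12 libraries, 120 were called (0.822%), that is, had a p-value below 0.05 after Benjamini-Hochberg adjustment in edgeR's quasi-likelihood test and a fold change above 2. The double mutants had the higher level for 91 of them (0.623%) and the lower level for 29 (0.199%). The rises were shallow, with log2 fold changes of 1.00 to 2.01 and a median of 1.14, while the falls had a median of −1.40 and reached −3.43. Among the 20 genes changed by more than 3-fold, 13 fell and 7 rose. The libraries of the 2 genotypes did not overlap for 26 of the 29 lower genes and for 47 of the 91 higher genes. Over all genes tested 8.9% did not overlap, 4.46% lower and 4.44% higher. Many of the higher genes were scarce: 39 had a median below 1 CPM in both genotypes, against 2 of the lower genes. With the fold change left out 2750 genes (18.8%) had an adjusted p below 0.05, of which 1458 (9.99%) were higher and 1292 (8.85%) lower, and their median absolute log2 fold change was 0.25. The fold threshold therefore cut through a dense range, with 53 called genes between 2-fold and 2.2-fold and 99 uncalled genes between 1.8-fold and 2-fold. Called genes were found on chromosomes I (18), II (26), III (8), IV (27), V (30) and X (11).

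**Figure D1:**
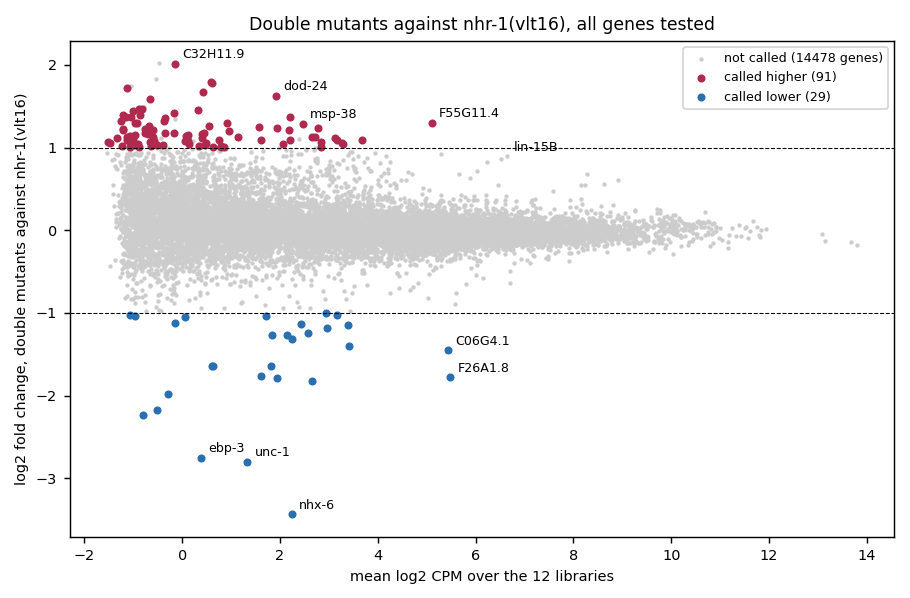
Log2 fold change of double mutants against nhr-1(vlt16) (vertical axis) for each of the 14598 genes tested, against its mean log2 CPM over the 12 libraries (horizontal axis). The 91 genes called higher (red) lie mostly at low levels and close to the 2-fold line (dashed), and the 29 called lower (blue) extend to −3.43 for nhx-6.

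The same allele had been compared in animals with an intact nhr-1, unc-1(vlt10) against 40Q, in 12 other libraries, so that no library is shared. Over the same 14598 genes that comparison called 826 genes (5.66%), 356 higher (2.44%) and 470 lower (3.22%). These 826 genes had a median absolute log2 fold change of 1.32 there and of 0.19 between double mutants and nhr-1(vlt16), beside 0.10 for all genes tested. Their changes also kept no common direction: 418 of the 826 (50.6%) had the same sign in both, 79 had an adjusted p below 0.05 in the same direction, 71 in the opposite direction, and 676 did not pass. The difference between the 2 effects was tested as an interaction of the alleles in the same fit. It had an adjusted p below 0.05 for 772 of the 826 genes (93.5%), beside 47.6% of all genes tested, and was called, with a difference above 2-fold, for 1255 of all genes (8.6%), 797 of them positive (5.46%) and 458 negative (3.14%). The set of 826 was chosen by its change in unc-1(vlt10) against 40Q, which also enters the interaction.

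**Figure D2:**
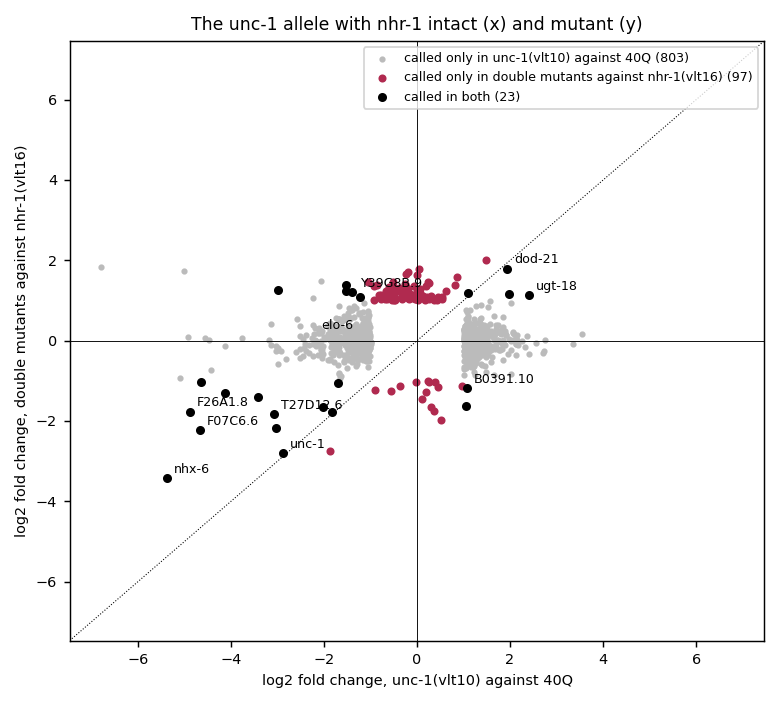
Log2 fold change of the unc-1 allele with nhr-1 intact (horizontal axis, unc-1(vlt10) against 40Q) and in nhr-1 mutants (vertical axis, double mutants against nhr-1(vlt16)), 1 point per gene called in either. Genes called only with nhr-1 intact (grey) lie mostly near 0 on the vertical axis, the 97 called only in nhr-1 mutants (red) lie beyond 2-fold on the vertical axis, and 12 of the 23 called in both (black) are lower in both, on or above the dotted line of equal change.

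A small set of transcripts fell in both backgrounds. Of the 120 genes called here, 23 were also called in unc-1(vlt10) against 40Q (19.2% of the 120 and 2.78% of the 826), and 12 of these were lower in both, unc-1 itself included. Of these 23 genes dod-21, T26C5.5, C18H7.1, C30H6.5, B0391.10, Y48E1B.8 and col-43 are described to complete the set and were chosen after their values were seen. The lead gene was nhx-6 (chromosome II, 1670829 to 1674401), which encodes a sodium/proton exchanger. Its levels ran from 14 to 17.5 CPM in nhr-1(vlt16), with a median of 15.2, and from 0.986 to 1.81 CPM in the double mutants, with a median of 1.34. Every double mutant library was below every nhr-1(vlt16) library, and the transcript was 10.8-fold lower (log2 fold change −3.43 ± 0.11, adjusted p = 2.01e-20). With nhr-1 intact its log2 fold change was −5.38, its mean being 13 CPM in 40Q and, with the allele, 0.306 CPM, and the interaction was 1.95 ± 0.23 on the log2 scale (adjusted p = 4.67e-08).

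The interaction also passed for 6 more of these genes, which fell less here than with nhr-1 intact. All 6 have sequence names only in the files. F26A1.8 (chromosome III, 4820650 to 4822240) was the most abundant by counts, at 76.8, 84.2 and 86.4 CPM (lowest, median and highest) in nhr-1(vlt16) and 19.8, 24.1 and 28.6 CPM in the double mutants. It was 3.42-fold lower (log2 fold change −1.77 ± 0.07, adjusted p = 7.1e-18), against −4.88 with nhr-1 intact (interaction 3.11, adjusted p = 4.86e-18). Double mutants thus kept a level that was clearly apart from both nhr-1(vlt16) and unc-1(vlt10), whose mean was 3.04 CPM. T27D12.6 (chromosome II, 11835508 to 11837606) ranged from 9.53 to 13.1 CPM in nhr-1(vlt16) and from 2.56 to 3.91 CPM in the double mutants (log2 fold change −1.83 ± 0.10, adjusted p = 5.41e-15; interaction 1.25). T06D8.10 went from 15.9 to 19.1 CPM down to 5.78 to 7.86 CPM (log2 fold change −1.40 ± 0.13, adjusted p = 2.52e-09), with an interaction of 2.03. The libraries of both genes were fully separated. C23G10.11 fell by 1.31 on the log2 scale (interaction 2.82), F07C6.6 by 2.23 (interaction 2.44) and Y48E1B.8 by 1.04 (interaction 3.62), with adjusted p of 1.29e-08, 2.34e-06 and 8.68e-06. The call of Y48E1B.8 was lost, with log2 fold changes down to −0.94, when double mutant replicate 1 or 5 or nhr-1(vlt16) replicate 5 was left out.

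For the other 5 genes lower in both, the interaction did not pass. Besides unc-1 these were nspc-13 and nspc-16, which encode short nematode-specific peptides, the collagen gene col-43 and H23N18.6. The levels of nspc-13 (chromosome X, 12357427 to 12357919) were 6.10, 7.12 and 7.30 CPM in nhr-1(vlt16) and 1.62, 2.03 and 2.30 CPM in the double mutants. The libraries were separated, and the log2 fold change was −1.78 ± 0.12 (adjusted p = 1.01e-12), against −1.83 with nhr-1 intact. The difference of 0.05 ± 0.17 had an adjusted p of 0.821. For nspc-16 the 2 values were −1.64 ± 0.17 (adjusted p = 2.07e-08) and −2.02, with an interaction of 0.38 ± 0.25 (adjusted p = 0.216). The call of col-43 was lost, with log2 fold changes up to −0.93, without double mutant replicate 2 or 5 or nhr-1(vlt16) replicate 4. H23N18.6 fell by 2.17 here and by 3.04 with nhr-1 intact (interaction 0.87 ± 0.46, adjusted p = 0.119). For unc-1 the interaction was 0.08 ± 0.21 (adjusted p = 0.78). An interaction that does not pass leaves room for differences of about 2 standard errors around these values.

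**Figure D3:**
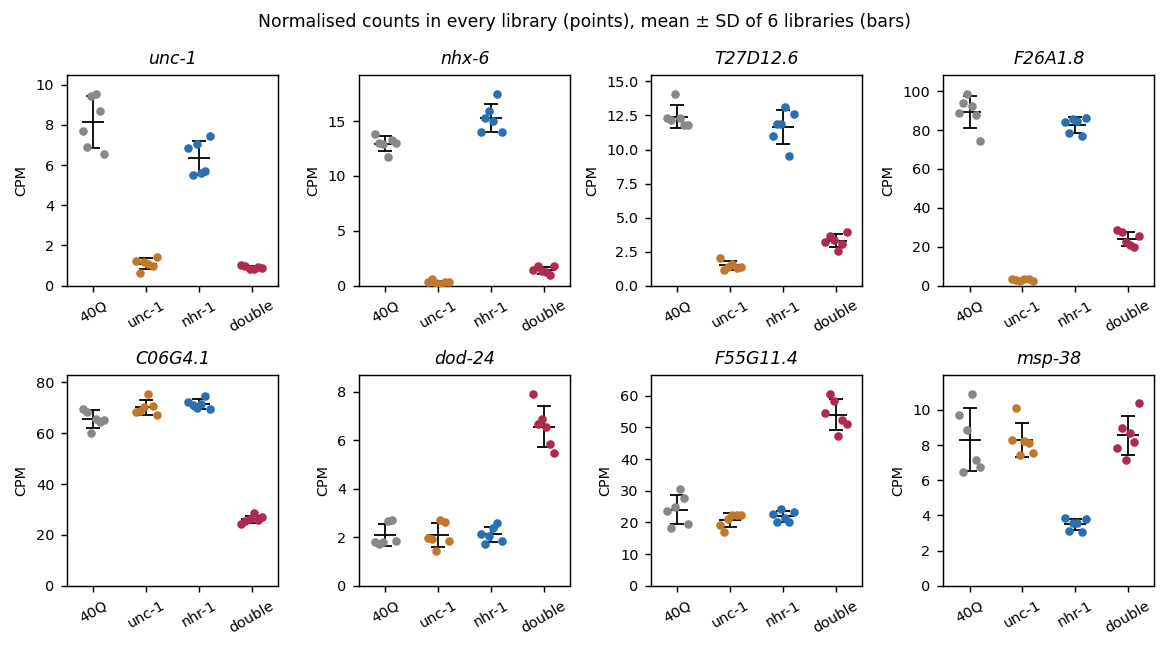
Normalised counts (CPM, vertical axes, linear and starting at 0) of 8 genes in each of the 24 libraries, with the mean and SD of 6 libraries per genotype; unc-1, nhr-1 and double stand for unc-1(vlt10), nhr-1(vlt16) and the double mutants. The first 4 genes were lower wherever the unc-1 allele was present, C06G4.1 was lower and dod-24 and F55G11.4 higher only in the double mutants, and msp-38 was lower only in nhr-1(vlt16).

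In both comparisons 4 genes rose, and 7 changed in opposite directions. The largest of the first kind was dod-21, a gene named as acting downstream of the FOXO factor DAF-16. It lay at 0.452 to 1.15 CPM in nhr-1(vlt16) and at 2.01 to 3.74 CPM in the double mutants, without overlap (log2 fold change 1.79 ± 0.23, adjusted p = 1.34e-06; 1.94 with nhr-1 intact, interaction adjusted p = 0.791). ugt-18, a glucuronosyltransferase gene of the detoxification class, rose 2.19-fold, from 0.838 to 2.21 CPM up to 2.73 to 3.56 CPM (log2 fold change 1.13 ± 0.15, adjusted p = 2.09e-06). It rose more with nhr-1 intact (2.41, interaction −1.27, adjusted p = 1.08e-05). The other two were T26C5.5 and C18H7.1, at 1.18 ± 0.24 and 1.16 ± 0.34, both with an interaction that did not pass. Each lost its call when 1 library was left out: T26C5.5 had a log2 fold change of 0.98 without nhr-1(vlt16) replicate 6, and C18H7.1 had an adjusted p of 0.0503 without double mutant replicate 3.

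Among the genes of opposite direction, 5 were higher here and lower with nhr-1 intact. Y39G8B.9 had 0.768 to 1.55 CPM in nhr-1(vlt16) and 2.21 to 3.39 CPM in the double mutants, apart in every library (log2 fold change 1.20 ± 0.20, adjusted p = 7.75e-05). With nhr-1 intact it changed by −1.39, and the interaction was 2.59. The means of the 4 genotypes were 3.64 CPM in 40Q, 1.38 in unc-1(vlt10), 1.23 in nhr-1(vlt16) and 2.85 in the double mutants, so each single mutant was low and the double mutants stood nearer to 40Q. Y47D7A.7 (1.23 against −1.52), the pseudogene Y19D10B.4 (1.27 against −2.99), tag-344 (1.39 against −1.52) and C30H6.5 (1.08 against −1.22) had means below 1 CPM in both genotypes compared here, with interactions of 2.75, 4.26, 2.92 and 2.31. C30H6.5 lost its call without double mutant replicate 3, 5 or 6 or nhr-1(vlt16) replicate 1 or 2, with adjusted p up to 0.0847. The reverse pattern, lower here and higher with nhr-1 intact, was seen in the noncoding RNA C04G6.15 (−1.64 ± 0.22 against 1.05, interaction −2.69) and in the pseudogene B0391.10 (−1.18 ± 0.12 against 1.07, interaction −2.25). B0391.10 had 8.85 to 13.4 CPM in nhr-1(vlt16) and 4.20 to 6.74 CPM in the double mutants.

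The remaining 97 called genes, 82 higher and 15 lower, were called only between double mutants and nhr-1(vlt16). Over all 120 genes the interaction was called for 90 and had an adjusted p below 0.05 for 99. The levels in the 4 genotypes fell into recognisable patterns, described here from the means and with no test, since the nhr-1(vlt16) libraries entered the choice of the genes. In 21 genes (14 higher, 7 lower) both single mutants were within 1.5-fold of 40Q and only the double mutants were not. In 51 genes (46 higher, 5 lower) nhr-1(vlt16) was more than 1.5-fold away from 40Q and the double mutants were within 1.5-fold of it. The other 48 followed neither pattern.

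Of the genes that fell only in the double mutants, C06G4.1 (chromosome III, 7987121 to 7990602) had the smallest p-value of the comparison. Its levels were 69.5, 71.2 and 74.6 CPM in nhr-1(vlt16) and 24.3, 25.9 and 28.5 CPM in the double mutants. The libraries were far apart, with a log2 fold change of −1.45 ± 0.04 (adjusted p = 1.51e-22), while 40Q and unc-1(vlt10) averaged 65.6 and 70.1 CPM and differed by 0.10 (interaction −1.54, adjusted p = 1.05e-19). F13H8.8 behaved differently. It was at 4.49 to 6.43 CPM in nhr-1(vlt16) and 1.23 to 2.03 CPM in the double mutants (log2 fold change −1.76 ± 0.14, adjusted p = 1.05e-10), but 40Q, at a mean of 1.76 CPM, was as low as the double mutants.

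Some lower genes were neighbours. On chromosome I the pseudogene snpc-3.3 (216028 to 217002), Y48G1BL.8 (217928 to 219137) and the pseudogene Y48G1BL.5 (219735 to 221575) all fell, with log2 fold changes of −1.65 ± 0.10, −1.99 ± 0.22 and −1.27 ± 0.10. For snpc-3.3 the levels were 4.93 to 6.51 CPM in nhr-1(vlt16) and 1.69 to 2.23 CPM in the double mutants, and all 3 genes were separated in every library. Next to them puf-10 (212256 to 215491), annotated as a pseudogene and named after a family of germline RNA-binding proteins, was lower by a smaller amount, from 75.1 to 84.4 CPM down to 54.5 to 63.2 CPM (log2 fold change −0.37 ± 0.04, adjusted p = 3.18e-08, not called). On chromosome II C04G6.15 (5097952 to 5098467) and C04G6.6 (5099438 to 5099749) fell together, by 1.64 and 1.14 on the log2 scale. By these positions none of the neighbours overlaps another. Whether the counting used strand is not given in the sources used here, so reads of any other gene overlapping them on the opposite strand could not be told apart. Of these neighbours Y48G1BL.8, Y48G1BL.5 and C04G6.6 were chosen after their values were seen.

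Called rises also came in groups, of which the one with the largest changes was on chromosome IV. C32H11.9 (12935011 to 12936271), dod-21 (12936738 to 12937988) and dod-24 (12940106 to 12941354) lie close together, and F55G11.4 (12973624 to 12975603) is a short distance away. dod-24 and F55G11.4 belong to a family of genes with a CUB-like domain that is known for its response to pathogens in the intestine. dod-24 had 1.73, 2.08 and 2.57 CPM in nhr-1(vlt16) and 5.49, 6.59 and 7.90 CPM in the double mutants. It was 3.09-fold higher (log2 fold change 1.63 ± 0.14, adjusted p = 1.81e-10), without overlap, while 40Q and unc-1(vlt10) had the same mean of 2.10 CPM (interaction 1.62, adjusted p = 1.58e-07). F55G11.4 had 20.0 to 24.1 CPM in nhr-1(vlt16) and 47.2 to 60.5 CPM in the double mutants (log2 fold change 1.30 ± 0.09, adjusted p = 1.19e-12), against −0.22 with nhr-1 intact (interaction 1.52). C32H11.9 was scarce, at 0.237 to 0.616 CPM in nhr-1(vlt16) and 0.937 to 4.14 CPM in the double mutants (log2 fold change 2.01 ± 0.34, adjusted p = 8.15e-05), and double mutant replicate 3 alone gave the highest value. Over the whole stretch from 12887062 to 12978343, 20 genes that share the clone names or the dod name of these were tested. Of these 20, 4 were called higher and none lower, beside 0.623% higher and 0.199% lower of all genes. At an adjusted p below 0.05, where 9.99% of all genes were higher, 8 of the 20 were higher and none lower. Among these were dod-22 (0.85 ± 0.13, adjusted p = 2.31e-05) and F55G11.2 (1.00 ± 0.18, adjusted p = 0.000208), the second just under the fold threshold at 0.998. Another pair lay on chromosome I, R12E2.15 (1.45 ± 0.39, adjusted p = 0.00784) and R12E2.7 (1.26 ± 0.41, adjusted p = 0.0292). On chromosome V H23N18.5 (1.05 ± 0.36, adjusted p = 0.0404), C02E7.7 (1.25 ± 0.34, adjusted p = 0.0101) and C02E7.6 (1.30 ± 0.30, adjusted p = 0.00231) rose on either side of the falling H23N18.6. All 5 overlapped between the genotypes, and R12E2.7 and H23N18.5 lost their calls in 6 and 10 of 21 settings. These 5 genes, the stretch on chromosome IV, C32H11.9, dod-22 and F55G11.2 were chosen after their values were seen.

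Among the larger rises were also C08F11.7 and T08B2.11, which have no other name in the files. C08F11.7 had 3.65 to 5.77 CPM in nhr-1(vlt16) and 9.84 to 10.9 CPM in the double mutants (log2 fold change 1.23 ± 0.10, adjusted p = 4.84e-11). T08B2.11 had 7.82 to 10.1 and 17.3 to 20.3 CPM (log2 fold change 1.10 ± 0.08, adjusted p = 2.26e-12). Neither gene overlapped between the genotypes. Both stood lowest in nhr-1(vlt16) among the 4 genotypes, with means of 8.37 and 12.1 CPM in 40Q.

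Just below the fold threshold, and chosen after their values were seen, were lin-15A and lin-15B, partly overlapping genes of chromosome X (15726123 to 15735365) that act with other repressors to hold back vulval cell fates. lin-15B had 69.2, 72.2 and 77.8 CPM in nhr-1(vlt16) and 127, 133 and 150 CPM in the double mutants. lin-15A had 26.6 to 29.1 and 50.8 to 56.9 CPM. Both were separated in every library, at log2 fold changes of 0.90 ± 0.05 and 0.93 ± 0.05 (adjusted p = 9.81e-16 and 1.82e-14), and at 0.18 and 0.05 with nhr-1 intact. T10B10.3, also on chromosome X, rose by 0.83 ± 0.03 (adjusted p = 7.1e-18), from 50.2 to 61.4 CPM up to 97 to 105 CPM. Reads in the stretch shared by the lin-15 genes could have been counted for either or for neither.

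Of 29 gene lists the sperm genes had the largest median change. Of the 95 members in the table, which include the major sperm proteins that both drive the crawling of nematode sperm and signal to oocytes, 72 were tested and 5 were called, all higher (6.94%, beside 0.822% of all genes). The adjusted p was below 0.05 for 58 of the 72, again all higher, beside 9.99% higher of all genes. Of the 72, 69 had a positive log2 fold change. Their median was 0.71, against 0.01 for all genes tested. msp-38 had 3.07, 3.57 and 3.84 CPM in nhr-1(vlt16) and 7.18, 8.44 and 10.4 CPM in the double mutants, with no overlap (log2 fold change 1.29 ± 0.12, adjusted p = 1.64e-09; −0.01 with nhr-1 intact, interaction 1.30). msp-10, ssp-33, nspd-3 and msp-65 were called at lower levels, all below 7 CPM, with log2 fold changes of 1.16, 1.21, 1.23 and 1.04 (msp-65 chosen after its values were seen). Major sperm protein genes are near-identical copies of each other, so the share of reads each one received is uncertain and the family is better read as a whole. Summed over the list, the level was 455 to 524 CPM in nhr-1(vlt16) and 662 to 734 CPM in the double mutants. Neither 40Q, at 688 to 862 CPM, nor unc-1(vlt10), at 745 to 818 CPM, reached down to nhr-1(vlt16), and with nhr-1 intact no sperm gene was called (median −0.03).

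Oocyte and embryo genes went the other way by small amounts. Of 49 oocyte and eggshell genes tested none was called, and the median was −0.10. At an adjusted p below 0.05, 24 were lower and 3 higher, where 8.85% of all genes were lower and 9.99% higher. Summed over the list, the level was 23170 to 25660 CPM in nhr-1(vlt16) and 21070 to 22930 CPM in the double mutants, and so did not overlap. 40Q was at 21320 to 23280 CPM, about the range of the double mutants, and unc-1(vlt10) at 22990 to 23970 CPM. Of 46 genes first transcribed in embryos, 9 were lower at an adjusted p below 0.05 and none was higher (median −0.24). vet-2 (early embryo) had 54 to 65.4 CPM in nhr-1(vlt16) and 47.8 to 53.0 CPM in the double mutants (−0.24 ± 0.06, adjusted p = 0.00444). All 5 markers of each of 8 tissues were detected. The summed sperm markers moved in the same direction as the sperm list (10.97 to 13.25 CPM and 17.76 to 21.14 CPM). These markers include major sperm protein genes, and msp-10 is in both sets, so this is not separate evidence. The oocyte markers moved down (5102 to 5770 CPM and 4508 to 5063 CPM), and those of muscle, pharynx, intestine, neurons, hypodermis and germline overlapped. The part of these marker differences in the other results was not tested.

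**Figure D4:**
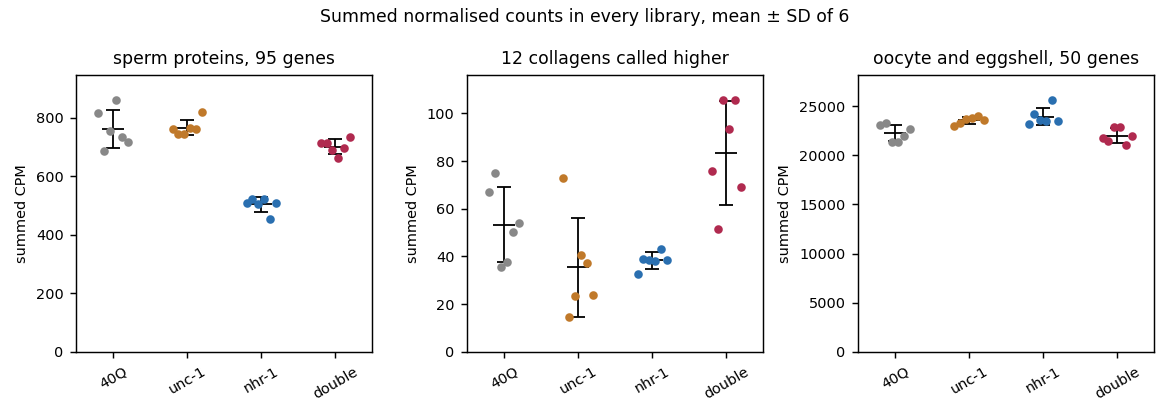
Summed CPM (vertical axes, linear and starting at 0) of 3 sets of genes in each of the 24 libraries, with the mean and SD of 6 libraries per genotype. Sperm genes were low only in nhr-1(vlt16) (455 to 524 CPM), the collagens called higher were widely spread in all genotypes but nhr-1(vlt16), and the oocyte genes were slightly lower in the double mutants than in nhr-1(vlt16). The collagens shown were chosen by their rise from nhr-1(vlt16) to the double mutants, so that difference was fixed by the choice.

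Collagen genes gave the largest number of calls. Cuticle collagens are secreted by the hypodermis and are made in waves at each moult. Of 129 tested, 12 were called higher and 1, col-43, lower (10.1% called, beside 0.822% of all genes). At an adjusted p below 0.05, whatever the fold change, 55 were higher and 2 lower, where 9.99% of all genes were higher and 8.85% lower. The median log2 fold change was 0.45. The largest were col-49 (1.37 ± 0.35, adjusted p = 0.00516), col-120 (1.24 ± 0.30, adjusted p = 0.0042), col-58 (1.18 ± 0.27, adjusted p = 0.00244) and col-156 (1.17 ± 0.40, adjusted p = 0.0383). The call of col-156 was lost in 9 of 21 settings, DESeq2 and thinning among them, with adjusted p up to 0.112. col-49 had 2.08, 3.05 and 3.57 CPM in nhr-1(vlt16) and 4.83, 8.46 and 9.11 CPM in the double mutants, whereas col-120 overlapped, with 1.85 to 3.40 and 2.40 to 8.94 CPM. The more abundant col-14 (1.12 ± 0.22, adjusted p = 0.000428) and col-175 (1.12 ± 0.29, adjusted p = 0.00581) did not overlap. With nhr-1 intact the collagens had a median of −0.48, with 8 called lower and 1 higher.

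The spread among double mutant libraries was wide for these genes. The 12 called higher were chosen by this same comparison, so a higher sum in the double mutants was fixed by the choice. Summed over them, the level was 32.5 to 43.1 CPM in nhr-1(vlt16) and 51.6 to 106 CPM in the double mutants, with replicate 2 lowest at 51.6 CPM and replicates 3 and 5 highest at 106 and 105.5 CPM. The count of 12 therefore depended on single libraries: it was 7 without double mutant replicate 3 or replicate 5, and 18 without replicate 2, while the count at an adjusted p below 0.05 stayed between 45 and 57. The same 12 genes ran from 14.5 to 72.9 CPM in unc-1(vlt10) and from 35.7 to 75.2 CPM in 40Q. The full list of 179 collagen genes, dominated by the abundant adult collagens, overlapped between the genotypes compared, at 34070 to 38400 CPM and 34670 to 44450 CPM. Of 123 moulting genes tested, with a median of 0.09, 1 was called (0.813%, beside 0.822% of all genes). This was the hedgehog-related wrt-4 (1.14 ± 0.34, adjusted p = 0.0159; 0.484 to 1.04 and 0.733 to 2.70 CPM). Its adjusted p was 0.0564 without double mutant replicate 4.

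**Figure D5:**
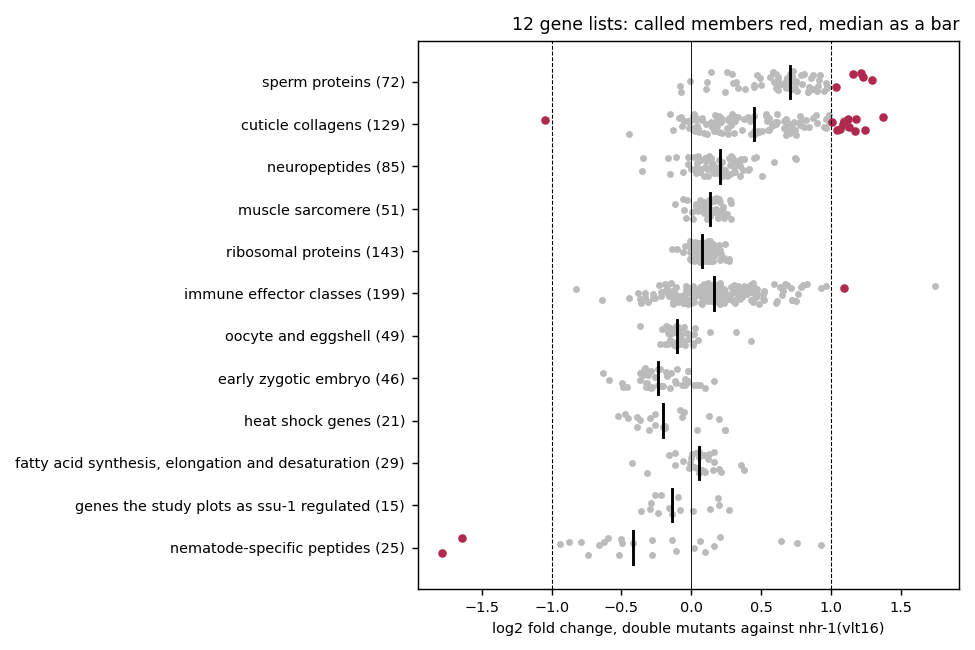
Log2 fold change of double mutants against nhr-1(vlt16) (horizontal axis) for each tested member of 12 gene lists (number tested in parentheses), with called members in red and the median as a bar; dashed lines mark 2-fold, and the vertical scatter within a list has no meaning. Sperm proteins (median 0.71) and cuticle collagens (median 0.45) lie to the right of 0, nematode-specific peptides (median −0.42) to the left, and the lists of fatty acid synthesis and of genes plotted as ssu-1 regulated around it.

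The genes of fatty acid synthesis, 7 of which were called lower with the unc-1 allele when nhr-1 was intact, did not fall together here. Of 29 tested none was called, 2 were higher and 4 lower at an adjusted p below 0.05, and the median was 0.05, against −0.39 and 7 called lower in unc-1(vlt10) against 40Q. elo-6, an elongase that takes part in the synthesis of branched-chain fatty acids, had 184, 205 and 229 CPM in nhr-1(vlt16) and 206, 229 and 253 CPM in the double mutants, which overlapped (log2 fold change 0.16 ± 0.06, adjusted p = 0.0628). With nhr-1 intact it changed by −2.22, and the interaction was 2.38 (adjusted p = 5.12e-19). elo-5 (0.17 ± 0.06) and elo-2 (0.15 ± 0.06) were alike, with interactions of 2.07 and 1.66. The acetyl-CoA carboxylase gene pod-2 (0.00 ± 0.05), the fatty acid synthase gene fasn-1 (0.12 ± 0.05), elo-1 (0.12 ± 0.05) and the desaturase gene fat-6 (0.03 ± 0.04) did not pass either, each with an interaction between 0.51 and 0.67. With nhr-1 intact they fell by less than 2-fold, with log2 fold changes of −0.53, −0.39, −0.51 and −0.63 in that order. For fasn-1 and the elongase genes above the adjusted p lay between 0.0624 and 0.0653, and with library totals alone as the scaling it was below 0.05. Most of them were also below 0.05 in the fit of only the 12 libraries and without double mutant replicate 5. Over the settings tried the lowest adjusted p of each lay between 0.00439 (elo-2) and 0.0226 (elo-6), and the highest between 0.148 (fasn-1 and elo-1) and 0.177 (elo-6).

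The desaturase genes fat-5 and fat-7 differed from each other. Among the synthesis genes that the study names, fat-5 alone passed the adjusted p. It lay at 14.3 to 17.7 CPM in nhr-1(vlt16) and 9.59 to 14.3 CPM in the double mutants (log2 fold change −0.42 ± 0.09, adjusted p = 0.00122, not called), against −2.05 with nhr-1 intact (interaction 1.63). fat-7 was low in both genotypes, with means of 8.09 and 8.53 CPM, close to the 7.63 CPM of unc-1(vlt10) and below the 22.6 CPM of 40Q. Its difference here was 0.08 ± 0.08 (adjusted p = 0.544), and the interaction was 1.64. Of the regulators in the list the nuclear receptor gene nhr-13 was lower by 0.32 ± 0.06 (adjusted p = 0.000595). Levels per gene length (mean FPKM, nhr-1(vlt16) first and double mutants second) were 275 and 284 for fat-6, 223 and 252 for elo-6, 14.9 and 11.2 for fat-5, and 7.16 and 7.63 for fat-7, so the order of these 4 genes was the same in both genotypes.

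Fat breakdown and transport showed a single call. Of 61 tested genes of fatty acid activation and oxidation, with a median of −0.02, 1 was called (1.64%, beside 0.822% of all genes). This gene, the acyl-CoA synthetase gene acs-18, rose from 0.813 to 1.14 CPM up to 1.35 to 2.65 CPM (log2 fold change 1.00 ± 0.17, adjusted p = 9.61e-05). It lay on the fold threshold, and its log2 fold change ran from 0.92 to 1.10 over the settings tried. Of 37 lipase and lipid-binding genes none was called. Where 9.99% of all genes were higher and 8.85% lower at an adjusted p below 0.05, 8 of the 37 were higher and 2 lower. The retinol- and fatty acid-binding far-4 was the first of them, at 5.51 to 6.6 CPM in nhr-1(vlt16) and 8.58 to 10.9 CPM in the double mutants (log2 fold change 0.67 ± 0.11, adjusted p = 4.08e-05), against −1.24 with nhr-1 intact (interaction 1.91).

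Genes of the sulfotransferase and steroid branch gave no call. Of 13 tested none passed both thresholds, and 1 passed the adjusted p: sul-2, a sulfatase, which removes sulphate from steroids, was higher by 0.36 ± 0.12 (adjusted p = 0.0363). daf-36, an oxygenase gene of dafachronic acid synthesis, had 16.8, 18.1 and 18.6 CPM in nhr-1(vlt16) and 15.4, 17.3 and 18.9 CPM in the double mutants. The libraries overlapped (log2 fold change −0.05 ± 0.07, adjusted p = 0.623), while with nhr-1 intact the value was −1.02 (interaction adjusted p = 2.02e-09). daf-9, which acts at the last step of the same synthesis, did not pass (0.11 ± 0.15, adjusted p = 0.676).

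The genes that the study plots as regulated by ssu-1 gave no call either. The study draws them from earlier work on ssu-1, and the legend of its plot also describes them by their direction in unc-1(vlt10). Whether that direction, seen in libraries of this series, entered the choice is not stated, so it is not taken as independent evidence. Of the 22 genes in this list 15 were tested, none was called, and the median was −0.14, against 1.39 and 8 called higher with nhr-1 intact. Y6E2A.4, the strongest of them there at 3.34, had 0.887 to 2.34 CPM in nhr-1(vlt16) and 0.766 to 1.67 CPM in the double mutants (log2 fold change −0.08 ± 0.23, adjusted p = 0.862, interaction −3.42). fipr-24, a small secreted peptide gene, gave −0.26 ± 0.19 (adjusted p = 0.36) against 2.72 (interaction −2.98). F15E6.4 was high in both nhr-1 mutant genotypes, at means of 34.7 and 31.5 CPM against 6.78 CPM in 40Q, and did not differ past the threshold between them (−0.14 ± 0.09, adjusted p = 0.274, interaction −1.73). On chromosome I fipr-24 stands beside similar copies, so its share of reads is uncertain. The glycerol phosphate dehydrogenase gene gpdh-1 was the only one with an adjusted p below 0.05, higher by 0.27 ± 0.06 (adjusted p = 0.00099), from 65.9 to 78.4 CPM up to 83.2 to 95.8 CPM.

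The lists of stress and immune genes contributed few calls. The called dod-24 and F55G11.4, described above with the genes of chromosome IV, are not members of the immune list. Of 21 heat shock genes none was called, and the median was −0.20. At an adjusted p below 0.05, 5 were lower and 2 higher, where 8.85% of all genes were lower and 9.99% higher. hsp-70, a heat-inducible chaperone gene, had 35.5 to 48.1 CPM in nhr-1(vlt16) and 27.5 to 35.6 CPM in the double mutants (−0.46 ± 0.07, adjusted p = 1.08e-05), against −1.87 with nhr-1 intact (interaction 1.41). Of 35 genes of the unfolded protein responses abu-12, which encodes a glutamine-rich protein, was the 1 called (2.86%, beside 0.822% of all genes). It was also the 1 called of the 57 tested pqn and abu genes (1.75%). Its log2 fold change was 1.33 ± 0.31 (adjusted p = 0.00271), with 0.177 to 0.750 CPM in nhr-1(vlt16) and 0.811 to 1.51 CPM in the double mutants. Among 178 detoxification genes ugt-18 and ugt-42 were called (1.12%, near the 0.822% of all genes). ugt-42 stayed under 1 CPM and had no adjusted p with DESeq2, and lost its call without a filter and without nhr-1(vlt16) replicate 1, 2 or 6. Of 199 immune effector genes 49 were higher and 13 lower at an adjusted p below 0.05 (median 0.16). The 1 called (0.503%, beside 0.822% of all genes) was cnc-7, which encodes an antimicrobial caenacin. It went from 1.67 to 2.33 CPM up to 2.92 to 6.30 CPM (1.09 ± 0.18, adjusted p = 5.1e-05; 0.96 without double mutant replicate 6). math-38 and fbxa-202, adaptors of ubiquitin ligases, were called higher (1.59 ± 0.27 and 1.37 ± 0.30), both with medians below 1 CPM in either genotype. They were 0.538% of the 372 genes tested of their classes, below the 0.822% of all genes.

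Neuropeptide and sarcomere genes were higher by small amounts. No neuropeptide gene of 85 tested was called, but 25 were higher and none lower at an adjusted p below 0.05, with a median of 0.20, where 9.99% of all genes were higher and 8.85% lower. The FMRFamide-like flp-9 had 14.2 to 20.5 CPM in nhr-1(vlt16) and 21.8 to 27.9 CPM in the double mutants (0.51 ± 0.09, adjusted p = 7.63e-05). Of 51 sarcomere genes 27 were higher and 1 lower at an adjusted p below 0.05, with a median of 0.14 and no call. The muscle gene dim-1, which encodes an immunoglobulin-repeat protein of the sarcomere, had 206 to 235 and 256 to 299 CPM (0.29 ± 0.04, adjusted p = 8.61e-06). Of 45 genes of neuromuscular transmission none was called and 2 were lower at an adjusted p below 0.05, led by the acetylcholine receptor subunit gene unc-63 (−0.38 ± 0.11, adjusted p = 0.0141; 4.47 to 5.45 and 3.10 to 4.56 CPM). Of the 33 stomatin and innexin genes tested, the family of UNC-1 and its partners, unc-1 was the only one called (3.03%, beside 0.822% of all genes). Of 25 nematode-specific peptide genes nspc-13 and nspc-16 were called (8%, beside 0.822% of all genes). At an adjusted p below 0.05, 11 were lower and 1 higher, and the median was −0.42. With nhr-1 intact 13 were called lower.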

How the data were processed

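Messenger RNA of pooled young adults was sequenced from 24 libraries, 6 per genotype. Per the submitters' processing notes and the study's methods the authors used HISAT2 2.0.5 for alignment, HTSeq 0.6.1 for counting and DESeq2 1.24.0 for testing. The deposited values used here are raw read counts per gene and FPKM, which the authors computed from them, and FPKM served only to compare levels between genes. The authors' own fold changes and p-values were not used. Counts were tested in edgeR 4.0.16 (R 4.3.3) with TMM factors and the quasi-likelihood F-test in 1 fit of all 24 libraries with genotype as the only term. Genes with at least 10 counts in at least 6 of the 12 libraries entered, 14598 of 46778, and p-values were adjusted by Benjamini-Hochberg over all of them. A call needed an adjusted p below 0.05 and a fold change above 2. SE is the standard error of the log2 fold change, computed as its absolute value divided by the square root of the F statistic. Positions are from Ensembl release 115 (WBcel235).

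Named genes were unc-1, nhr-1, the 10 higher and 10 lower called genes of largest change among those without overlap whose log2 CPM averaged 1 or more, called members of each list (at most the 4 largest, otherwise the member of smallest p), genes the study names, and, of the genes called in both comparisons, the 5 of largest change with the same and the 5 with opposite directions. Members and lists were chosen with earlier results of these data known. The labels call the libraries of a genotype biological replicates, each of pooled worms, and p-values measure the spread between them. No 2 libraries agreed within sampling noise. The fits were tested on simulated data. Alternatives were other scalings, filters and tools (DESeq2 1.42.0), thinning, a replicate block and leaving out each library. The counts of list members under these alternatives were added after seeing the data.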

Additional observations from a re-analysis of the deposited data

Results flagged for a closer look

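Single libraries stood apart from the other 5 of their genotype in 9 of 210 sets of 6 values (by Dixon's criterion), where chance gives about 1 in 20. In nhr-1(vlt16), replicate 5 had 11.3 CPM of nhr-1 (others 14.8 to 16.4), 84.4 CPM of puf-10 (others 75.1 to 77.9), 34070 CPM summed over the cuticle collagens (others 36920 to 38400) and 455.4 CPM summed over the sperm genes (others 505 to 524). Replicate 3 of the same genotype had 0.805 CPM of math-38 (others 0.133 to 0.352) and 4.93 CPM of snpc-3.3 (others 6.04 to 6.51). Among the double mutants, replicate 3 had 4.14 CPM of C32H11.9 (others 0.937 to 1.57), replicate 5 had 42.1 CPM of F15E6.4 (others 26.8 to 32.3) and replicate 6 had 1.22 CPM of ebp-3 (others 0.510 to 0.629).

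The effect of the unc-1 allele differed between nhr-1 mutants and animals with nhr-1 intact for 1255 genes, of which 55 are named here, by the edgeR interaction with an adjusted p below 0.05 and a difference above 2-fold. The log2 interactions that follow are the effect in nhr-1 mutants minus that with nhr-1 intact. Among the genes called in both comparisons it was 4.26 for Y19D10B.4, 3.62 for Y48E1B.8, 3.11 for F26A1.8, 2.92 for tag-344, 2.82 for C23G10.11, 2.75 for Y47D7A.7, −2.69 for C04G6.15, 2.59 for Y39G8B.9, 2.44 for F07C6.6, 2.31 for C30H6.5, −2.25 for B0391.10, 2.03 for T06D8.10, 1.95 for nhx-6, −1.27 for ugt-18 and 1.25 for T27D12.6. Other genes lower in the double mutants had −2.51 for Y48G1BL.8, −2.12 for F13H8.8, −2.09 for C04G6.6, −1.96 for snpc-3.3, −1.61 for ztf-28, −1.54 for C06G4.1 and −1.47 for Y48G1BL.5. In neighbouring genes that rose on chromosomes I and V it was 2.52 for R12E2.15, 1.85 for R12E2.7, 1.81 for C02E7.6, 1.79 for H23N18.5 and 1.62 for C02E7.7. For collagen and moulting genes it was 2.23 for col-49, 1.94 for col-175, 1.92 for wrt-4, 1.91 for col-120, 1.65 for col-156, 1.61 for col-14 and 1.42 for col-58. Sperm genes had 1.55 for ssp-33, 1.49 for nspd-3, 1.44 for msp-10, 1.30 for msp-38 and 1.03 for msp-65. In fatty acid and lipid-binding genes it was 2.38 for elo-6, 2.07 for elo-5, 1.91 for far-4, 1.66 for elo-2, 1.64 for fat-7 and 1.63 for fat-5. In the genes plotted as ssu-1 regulated it was −3.42 for Y6E2A.4, −2.98 for fipr-24 and −1.73 for F15E6.4. For immune, stress and ubiquitin adaptor genes it was 1.93 for abu-12, 1.76 for cnc-7, 1.63 for dod-24, 1.52 for F55G11.4, 1.41 for hsp-70, 1.34 for F55G11.2 and 1.19 for fbxa-202.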

How the results depend on the processing

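No gene or count past its threshold changed direction under the settings tried. Among named genes that did not pass, up to 4 in a setting changed sign (most without double mutant replicate 5), pod-2, daf-9 and Y6E2A.4 among them. The count of 120 called genes (91 higher, 29 lower) depended on the filter: without one it was 195 (151 higher, 44 lower), and with 1 CPM required in 6 of the 12 libraries it was 67 (45 higher). It became 2750 (1458 higher, 1292 lower) without the fold threshold, which also gave 55 collagens and 58 sperm genes higher. With the 1 CPM filter 3 sperm genes were called in place of 5. Without a filter unc-1(vlt10) against 40Q gave 1311 calls in place of 826. DESeq2 called 105 genes, RLE size factors 116, library totals alone 126, filterByExpr 132, the fit of only the 12 libraries 127, and counts thinned to the smallest total 104. Leaving out 1 library gave 96 to 125 calls, 69 to 98 higher and 27 to 36 lower, 7 to 18 called collagens, 4 to 7 called sperm genes, and log2 fold changes of −2.84 to −2.75 for unc-1. Of 71 called genes followed singly, 51 kept the call wherever they had an adjusted p and 20 lost it at least once. DESeq2 gave no adjusted p for 3 of them, ugt-42, Y19D10B.4 and Y47D7A.7, and that setting is not counted as a lost call for these. Filters also took genes out of some settings, which are not counted either. With the 1 CPM filter 52 of the 71 were tested, and fbxa-202 and nspd-3 each had an adjusted p in 13 of 21 settings. With the replicate block 118 genes were called, 114 of them among the 120. Same-numbered libraries did not deviate together (correlations of −0.232 to 0.0597, 0 of 6 double mutant libraries closest to their own number), so they share only a number. Depth was low for 41 called genes with medians below 1 CPM in both genotypes.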

Other observations

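Several transcripts outside the lists and the pathway also fell in the double mutants, and were chosen after their values were seen. ztf-28, a zinc finger gene, had 13.6 to 16.8 CPM in nhr-1(vlt16) and 6.46 to 7.82 CPM in the double mutants (log2 fold change −1.15 ± 0.07, adjusted p = 2.95e-13). dod-3 had 8.53 to 9.77 CPM and 3.35 to 4.35 CPM (−1.24 ± 0.09, adjusted p = 1.75e-11). Both genes were separated in every library. mig-14, which encodes the carrier of Wnt proteins to the cell surface, had 55.8 to 67.3 CPM and 35.2 to 40.1 CPM and fell by less than 2-fold (−0.76 ± 0.04, adjusted p = 1.38e-14). ebp-3 had one of the largest falls (−2.75 ± 0.69, adjusted p = 0.00506), but its nhr-1(vlt16) libraries ran from 0.444 to 9.05 CPM and overlapped with the double mutants, at 0.510 to 1.22 CPM.

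The other lists held no called gene. Of 183 nuclear hormone receptor genes 21 were lower and 1 higher at an adjusted p below 0.05, where 8.85% of all genes were lower and 9.99% higher (median −0.04), led by nhr-78 (−0.48 ± 0.07, adjusted p = 1.82e-05). Ribosomal protein genes were on the higher side by small amounts, with 41 of 143 higher and 1 lower (median 0.08), led by rpl-41.1 (0.27 ± 0.05, adjusted p = 0.000235). Of 35 genes of insulin-like peptides and their pathway 4 were higher and 5 lower, and the kinase gene pdk-1 had the smallest p-value (−0.35 ± 0.05, adjusted p = 6.85e-06). Of 23 genes of the glycerol and osmotic response 7 were higher and 1 lower, led by the aquaporin gene aqp-7, at 124 to 138 CPM in nhr-1(vlt16) and 153 to 197 CPM in the double mutants (0.38 ± 0.06, adjusted p = 2.63e-05). Of the 6 vitellogenins, the yolk proteins, vit-6 was lower (−0.18 ± 0.05, adjusted p = 0.0184). Of 50 respiratory chain genes 8 were higher, led by cyc-2.2 (0.71 ± 0.14, adjusted p = 0.00034), of 40 histone genes 1 was higher and 2 lower, led by hil-7 (0.80 ± 0.20, adjusted p = 0.00557), and of 35 genes of amino acid and one-carbon metabolism 3 were higher and 4 lower, led by the propionyl-CoA carboxylase gene pccb-1 (−0.23 ± 0.04, adjusted p = 0.00018).

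Chromosome X, which carries both mutated genes and the transgene, had 11 called genes of 2096 tested (0.525%, beside 0.822% of all genes). At an adjusted p below 0.05 it had 176 higher and 320 lower genes, whereas chromosome IV had 312 higher and 157 lower of 2432 tested. Over all genes tested 9.99% were higher and 8.85% lower. Within 500 kb of unc-1 118 genes were tested and none was called by edgeR. Their log2 fold changes ran from −0.65 to 0.73. Of the 118, 26 had an adjusted p below 0.05, 6 of them higher and 20 lower, where 18.8% of all genes tested passed. Differences between the strains at other sites, linked to the alleles or not, cannot be told apart from the effect of the alleles.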
